A study of Rattus norvegicus with 20 samples.

Results

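Spry1, Spry2, Spry4, Spred1, Spred2 and Errfi1 encode feedback inhibitors of receptor tyrosine kinases, and their transcripts were counted in 20 libraries of rat alveolar epithelial cells. The 6 genes were chosen by symbol, from their known function and with no threshold on their values, although earlier results of these data were known. Of the 6, all were among the 17337 symbols of the count table, and 4 (Spry1, Spry2, Spry4 and Errfi1) were among the 8320 symbols abundant enough to test. Spred1 was detected below that limit, and Spred2 was listed at 0 in 20 of 20 libraries.

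The cells were primary type II pneumocytes of Sprague-Dawley rats that had spread for 4 days on fibronectin-coated silastic into monolayers resembling type I cells. In all, 4 groups of 5 libraries were compared. Group NS stayed unstretched with 0.01% DMSO for 24 h, and group S had 18 h of this vehicle before 6 h of cyclic biaxial stretch at 25% surface area change and 15 cycles per min. Groups NS_PI and S_PI were kept unstretched or stretched in the same way with 1 µM GSK2606414, an inhibitor of PERK, the kinase of the unfolded protein response encoded by Eif2ak3. Sample labels give 18 h of inhibitor for NS_PI and the treatment text gives 24 h, and neither names DMSO for the inhibitor groups. GSK2606414 is also known to inhibit the kinases RIPK1 and KIT, and effects through these and through PERK cannot be told apart here. Each library pooled 4 monolayers of 1 animal, and libraries with the same number were treated as the same animal. The labels do not state the age or sex of the rats.

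Growth factors such as those of the EGF and FGF families bind receptor tyrosine kinases, which recruit the adaptor GRB2 and the exchange factor SOS, load RAS and start the RAF, MEK and ERK kinase cascade. ERK activity in turn raises transcription of its own brakes. Sprouty proteins (Spry genes) limit the activation of RAS and RAF, SPRED proteins bring the RAS-inactivating protein neurofibromin to the membrane, and ERRFI1, also called MIG6, binds the kinase domain of the EGF receptor and blocks it. In the lung these genes are best known from airway branching, in which Sprouty proteins restrain FGF signals.

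Spry2 was the only member that passed the test in both stretch comparisons below, and the 250 bases before its outermost start site are therefore shown. The sequence is from RefSeq (GRCr8, chr15:89111927-89112176, minus strand) and capitals mark a match to the ETS core CCGGAA.

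Spry2 promoter: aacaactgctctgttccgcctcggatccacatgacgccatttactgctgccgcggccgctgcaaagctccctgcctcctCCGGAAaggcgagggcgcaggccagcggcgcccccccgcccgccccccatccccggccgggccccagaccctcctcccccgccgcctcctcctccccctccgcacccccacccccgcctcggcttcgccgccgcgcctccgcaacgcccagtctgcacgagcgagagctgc

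The match lies 171 to 166 bases before the start. ETS factors are a family that includes nuclear targets of ERK. The promoters of all 6 members were in the RefSeq table, with a further internal start listed for Spry2. Both strands of the 250 bases before each start were searched for the ETS core, for the AP-1 motif TGANTCA, for the TEAD motif GGAATG and for the CArG box of serum response factor. The ETS core was also found before Spry4, 81 to 76 bases from the start on the opposite strand. No listed motif occurred in the windows of Spry1, Spred1, Spred2, Errfi1 or the internal start of Spry2. Of 33469 promoters in the table, 12.6% held the ETS core, 6.34% the AP-1 motif, 12.1% the TEAD motif and 1.5% the CArG box. The members' matches are a description of these letters and were not tested.

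Libraries held 999209 to 3131541 counts assigned to genes. A count of 3, taken as the floor of detection, corresponded to 1.07 to 3.04 CPM depending on the library, where CPM is the usual count scaled to library size, here with TMM factors. Type I markers were present, Pdpn at 600.5 to 2959 CPM and Ager at 61.5 to 1258 CPM, while Aqp5 reached at most 16.5 CPM and was 0 in at least 1 library. Markers of type II cells, leukocytes and fibroblasts were also detected, so the values below are those of a mixed monolayer, in which fewer cells of a type and less RNA per cell cannot be told apart. Leukocyte markers summed to 884.7 to 2894 CPM in NS and 1522 to 3578 CPM in S, with 1 of 12 (Cd52) at 0. Fibroblast and smooth muscle markers summed to 3259 to 7516 CPM in NS and 3979 to 12449 CPM in S, most of it from Col1a1. Type II markers summed to 1715 to 8316 CPM in NS and 1319 to 11080 CPM in S, and 0 of 8 tested were called in either stretch comparison. Most of this sum came from Lyz2, which averaged 4898 CPM over the 20 libraries, against 190.3 CPM for the next highest, Napsa. The surfactant genes Sftpc, Sftpb and Sftpa1 averaged only 11.9, 7.30 and 12.1 CPM. Of 3 tested airway and 2 tested mesothelial markers, 1 each rose in S vs NS and 0 changed in S_PI vs NS_PI. Endothelial markers summed to at most 9.88 CPM in any library, with 2 of 8 at 0.

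Spry2 transcripts rose with stretch, with and without the inhibitor. In unstretched vehicle cells Spry2 stood at 4.14, 5.90, 4.94, 1.76 and 7.02 CPM in animals 1 to 5, from 9, 12, 8, 3 and 13 counts. In stretched vehicle cells the same animals gave 6.51, 22.4, 22.8, 5.06 and 10.3 CPM, from 13, 63, 37, 5 and 16 counts. The value was higher with stretch in 5 of 5 animals, by most in animals 2 and 3, and the groups overlapped. The mean went from 4.75 ± 1.99 to 13.4 ± 8.60 CPM (SD, n = 5), a log2 change of 1.42 ± 0.38 (SE), or 2.68-fold (edgeR quasi-likelihood test, adjusted p = 0.00909). The call was lost without animal 2 (log2 change 1.24, adjusted p = 0.0585) and without animal 3 (1.22, adjusted p = 0.0635). Over its 11 alternatives adjusted p ran from 0.00143 to 0.0635.

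With the inhibitor, unstretched cells held 6.02, 2.08, 2.10, 1.85 and 1.48 CPM of Spry2 in animals 1 to 5, and in animals 2 to 5 this rested on 2 to 5 counts, close to the floor. Stretched cells with inhibitor held 8.55, 22.5, 21.5, 12.1 and 10.9 CPM. Every stretched library lay above every unstretched library here, and the share of all genes separated in this way was not counted. The mean went from 2.71 ± 1.87 to 15.1 ± 6.41 CPM (SD, n = 5), a log2 change of 2.36 ± 0.41 (SE), or 5.12-fold, higher in 5 of 5 animals (adjusted p = 0.000225). This call held under all 11 alternatives, with log2 changes of 2.05 to 3.10 and adjusted p of at most 0.00457. The smallest difference was that of animal 1, at 0.44 on the log2 scale, against 2.17 to 2.89 in the others.

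**Figure D1:**
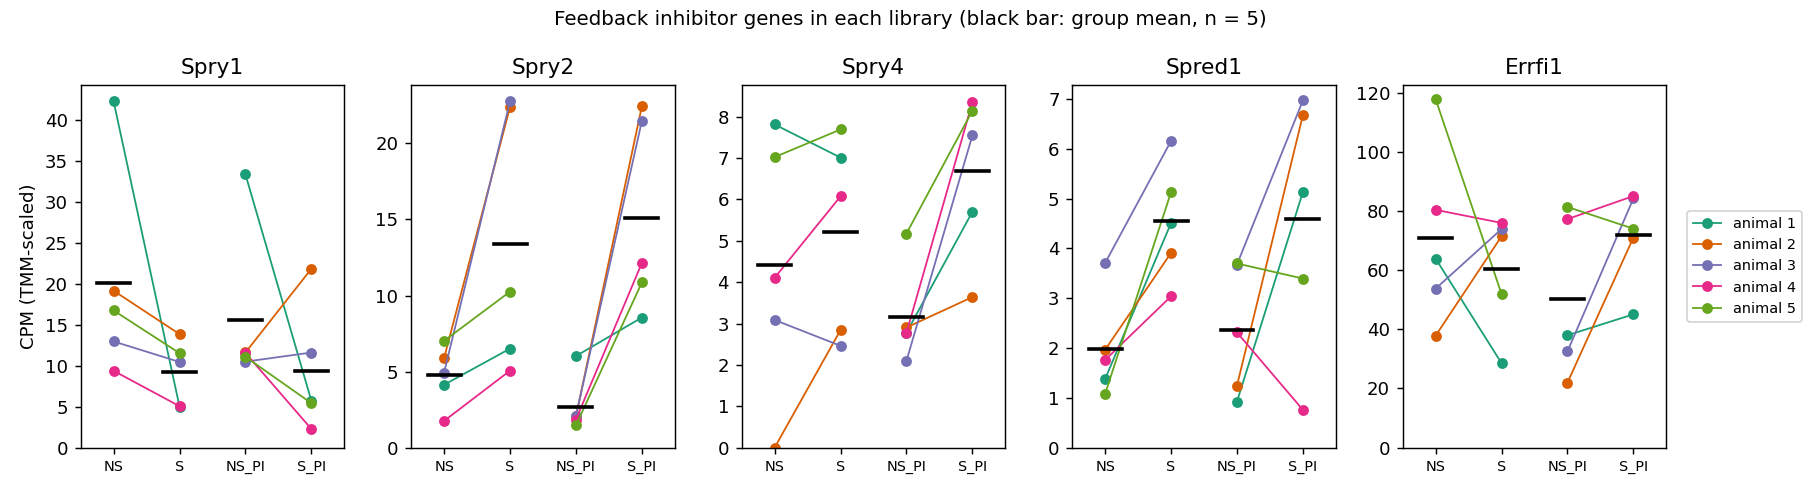
Level of each detected member (CPM, TMM-scaled, linear axis from 0) in every library, with lines joining the unstretched and stretched library of 1 animal without (NS, S) and with inhibitor (NS_PI, S_PI), and black bars for group means (n = 5). Spry2 went up along 10 of 10 lines, whereas Spry1 went down steeply in animal 1, from 42.3 to 5.01 CPM without inhibitor.

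Among the tested members, 1 of 4 was called in S vs NS, where 24.9% of all tested genes were called, and 1 of 4 in S_PI vs NS_PI, where 30.5% were. These shares are near the background, so the set as a whole did not stand apart by its number of calls. The median log2 change of the 4 was 0.05 in S vs NS and 0.84 in S_PI vs NS_PI, against -0.01 and -0.02 over all genes. Leukocyte markers called with stretch moved in the direction of Spry2 (5 of 10 tested rose and 0 fell in both comparisons). Their changes were smaller than those of Spry2, with median log2 changes of 0.46 and 0.39 and highest ones of 0.91 and 0.79. Of 8 tested type I markers 4 fell and 0 rose in S vs NS, and 6 fell and 1 rose in S_PI vs NS_PI. Of 7 tested fibroblast and smooth muscle markers 1 rose in S vs NS, and 3 rose and 1 fell in S_PI vs NS_PI. The part of these cell types in the Spry2 values was not tested.

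Spry1, another Sprouty gene that restrains RAS activation, had values that pointed the other way. It stood at 42.3, 19.2, 13.0, 9.39 and 16.7 CPM in animals 1 to 5 of NS and at 5.01, 13.9, 10.5, 5.06 and 11.5 CPM in S. Stretched libraries were lower in 5 of 5 animals, but the groups overlapped, and animal 1 had by far the highest unstretched level. The mean was 20.1 ± 12.9 CPM in NS and 9.19 ± 3.98 CPM in S (SD, n = 5), a log2 difference of -1.06 ± 0.41 (SE) that missed the threshold (adjusted p = 0.0623). It passed with upper-quartile scaling (-1.12, adjusted p = 0.0462), with scaling by library size alone (-1.18, 0.0376) and with no filter on low counts (-1.07, 0.0192). Without animal 1 the difference was -0.49 (adjusted p = 0.302, the highest of its 11 alternatives).

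With the inhibitor, Spry1 stood at 33.4, 11.6, 10.5, 11.6 and 11.1 CPM in unstretched cells and at 5.70, 21.8, 11.6, 2.28 and 5.43 CPM in stretched cells. It was lower with stretch in 3 of 5 animals and higher in animals 2 and 3. The log2 difference was -0.73 ± 0.42 (SE; adjusted p = 0.197), which became -0.18 without animal 1 (adjusted p = 0.730) and passed without animal 2 (-1.35, adjusted p = 0.0318). A contrast averaged over both inhibitor states was added after the data were seen. Beyond the animal block, it counts the libraries of an animal as independent. There Spry1 fell by 0.89 on the log2 scale (adjusted p = 0.0179), and Spry2 rose by 1.89 (adjusted p = 1.64e-05). In that contrast 2 of 4 tested members and 45.9% of all genes were called. The Spry1 call was lost without animal 1 (-0.33, adjusted p = 0.267), without animal 4 (-0.80, 0.0668) and without the animal as a block (-0.91, 0.0603). Its adjusted p ran from 0.00235 to 0.267 over 10 alternatives.

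Spry4, which acts on the same step as Spry1 and Spry2, was counted only 168 times in all libraries together. It stood at 7.81, 0, 3.09, 4.11 and 7.02 CPM in NS and at 7.01, 2.84, 2.46, 6.08 and 7.69 CPM in S, with overlapping ranges and higher values in 3 of 5 animals. The log2 difference was 0.27 ± 0.41 (SE; 95% interval -0.57 to 1.12; adjusted p = 0.659). With the inhibitor it stood at 2.78, 2.91, 2.10, 2.77 and 5.18 CPM unstretched and at 5.70, 3.64, 7.55, 8.35 and 8.15 CPM stretched, higher in 5 of 5 animals. That log2 difference was 1.07 ± 0.42 (SE), and it stood just outside the threshold (adjusted p = 0.0547). It passed with DESeq2 (1.10, adjusted p = 0.0448) and without animal 2 (1.26, 0.0203), with adjusted p of 0.0203 to 0.196 over 10 alternatives.

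**Figure D2:**
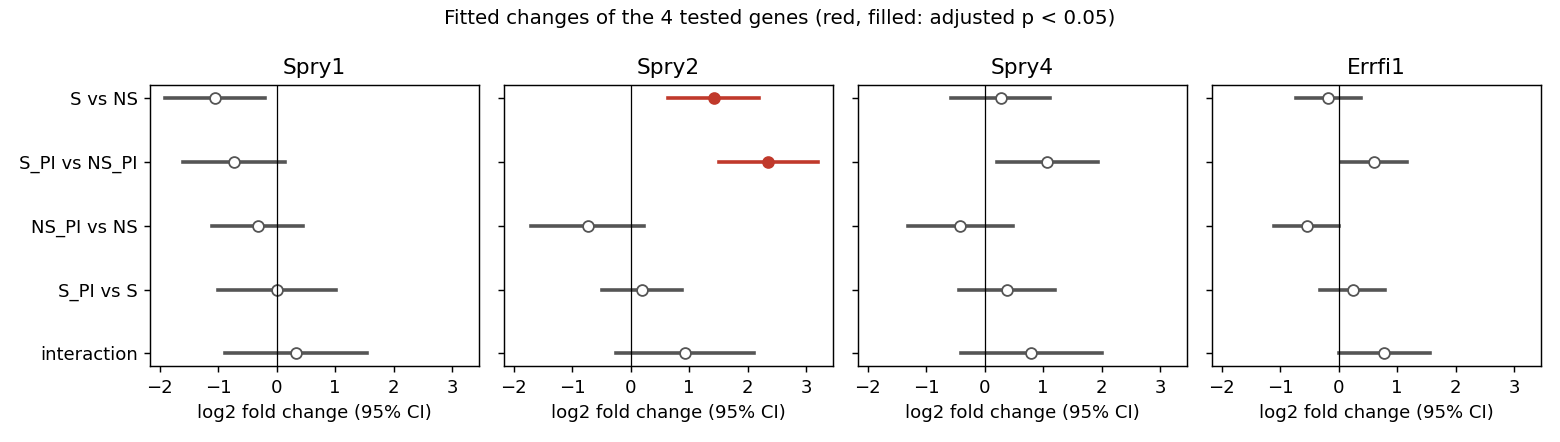
Fitted log2 fold change (x axis) with its 95% confidence interval for the 4 tested members in the stretch comparisons, the inhibitor comparisons and their interaction, with red filled points where adjusted p was below 0.05. Both red points belong to Spry2, at 1.42 and 2.36, and the interaction intervals of all 4 genes reach 0.

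The make-up of the Sprouty counts differed between stretched and unstretched cells, with a smaller part from Spry1 and a larger part from Spry2 in stretched cells. This share was chosen after the values of Spry1 and Spry2 were seen and is given with no test. Spry2 made up 7.63 to 23.5% of the summed Spry1, Spry2 and Spry4 counts in NS and 31.2 to 63.8% in S. With inhibitor the share was 8.33 to 14.3% unstretched and 42.9 to 53.3% stretched, so the ranges were apart in both comparisons. Because the annotated 3' ends of the genes can differ in how many reads they catch, the shares compare groups and not genes.

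The log2 ratio of Spry2 to Spry1 within a library, likewise untested, was -1.76 ± 0.78 in NS and 0.37 ± 0.49 in S (SD, n = 5), and its difference between S and NS was 0.98 to 3.37 across animals. With inhibitor it was -2.09 ± 0.17 unstretched and 0.84 ± 0.71 stretched, with differences of 2.04 to 4.07. The ratio was thus higher with stretch in 5 of 5 animals in each inhibitor state. Without inhibitor the largest difference, 3.37, was that of animal 1, where Spry1 differed by -2.83 and Spry2 by 0.54. The summed level of the 3 genes, also untested, was 29.3 ± 15.1 CPM in NS and 27.8 ± 10.2 CPM in S, higher with stretch in 3 of 5 animals. With inhibitor it was 21.5 ± 11.6 CPM in NS_PI and 31.2 ± 12.4 CPM in S_PI, higher in 4 of 5. The means depend on animal 1, whose sum went from 54.2 to 18.5 CPM without inhibitor and from 42.2 to 20.0 CPM with it.

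**Figure D3:**
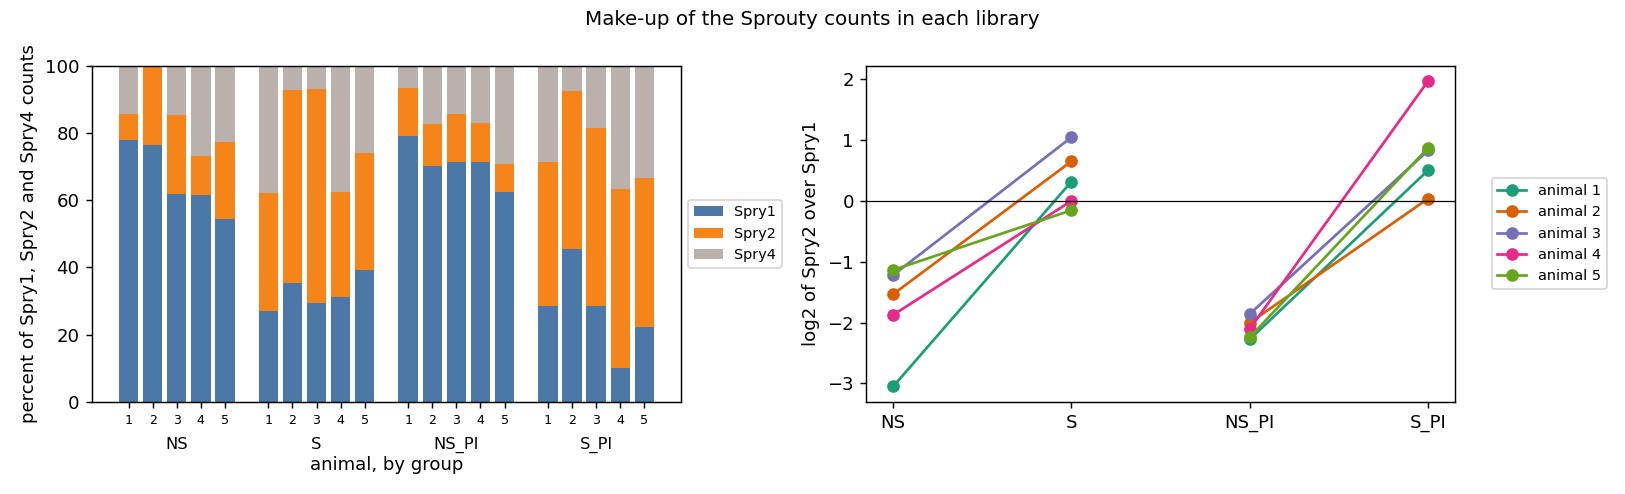
Left, the percent of Spry1, Spry2 and Spry4 counts that belonged to each gene in every library, by group and animal. Right, the log2 ratio of Spry2 to Spry1 (log2 CPM with a prior count of 2) with lines joining the libraries of 1 animal: the unstretched libraries lie at -1.14 or lower and the stretched ones at -0.15 or higher.

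Of the SPRED genes, only Spred1 gave usable counts. It was detected in 20 of 20 libraries with 119 counts in all, too few for the filter, so it was not tested with the other genes. Spred1 stood at 1.38, 1.97, 3.71, 1.76 and 1.08 CPM in NS and at 4.51, 3.91, 6.16, 3.04 and 5.13 CPM in S, higher with stretch in 5 of 5 animals with overlapping ranges. With inhibitor it stood at 0.927, 1.25, 3.68, 2.31 and 3.70 CPM unstretched and at 5.13, 6.67, 6.97, 0.759 and 3.39 CPM stretched, higher in 3 of 5 animals. Counts were 1 to 12 per library, so most values lay within a few counts of the floor. When all 13243 genes with any count were fitted, its log2 difference was 1.19 ± 0.47 in S vs NS (SE; adjusted p = 0.0754) and 0.99 ± 0.46 in S_PI vs NS_PI (adjusted p = 0.129), neither of them past the threshold. Only the average over both inhibitor states passed in that fit (1.09 ± 0.33, adjusted p = 0.00766).

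Spred2 had 0 counts among 36299740 gene counts, which allows a level of up to 0.0827 CPM over the 20 libraries by counting error alone. Between 16.2 and 24.5% of alignment records fell in no annotated gene, and reads beyond an annotated 3' end would be among them, so a count of 0 does not show that the gene was silent. The relatives Spred3, with 13 counts in 8 libraries, and Spry3, with 0 counts, were equally out of reach. In the RefSeq table Spred1 overlaps the pseudogene Eno1-ps25 and Errfi1 overlaps the non-coding gene LOC102556316. The sources used here do not say whether counting used the strand, so reads of Errfi1 and of its neighbour may not be separable.

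Errfi1, the EGF receptor inhibitor, was the best counted member, with 2228 counts, and it did not pass the test in any comparison. In NS it stood at 63.9, 37.8, 53.7, 80.4 and 117.8 CPM in animals 1 to 5 and in S at 28.5, 71.4, 73.9, 75.9 and 51.9 CPM. Stretch was accompanied by higher values in animals 2 and 3 and lower ones in animals 1, 4 and 5. The log2 difference was -0.18 ± 0.27 (SE; 95% interval -0.73 to 0.38; adjusted p = 0.671), and it was 0.06 without animal 1 and 0.10 without animal 5. With inhibitor Errfi1 stood at 38.0, 22.0, 32.6, 77.2 and 81.3 CPM unstretched and at 45.1, 71.0, 84.2, 85.0 and 74.0 CPM stretched. There the log2 difference was 0.61 ± 0.27 (SE; adjusted p = 0.0925), higher in 4 of 5 animals.

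The inhibitor alone moved no member past the threshold. In NS_PI vs NS, 0 of 4 tested members were called, as were 0% of all genes with edgeR (454 of 8320 at an unadjusted p below 0.05, and 4 called by DESeq2). In S_PI vs S, 0 of 4 members and 0% of genes were called with edgeR (340 at an unadjusted p below 0.05, 0 by DESeq2). In unstretched cells the log2 differences were -0.33 ± 0.37 for Spry1, -0.74 ± 0.46 for Spry2, -0.42 ± 0.43 for Spry4 and -0.55 ± 0.27 for Errfi1 (SE). Errfi1 was lower with inhibitor in 5 of 5 animals there, with a 95% interval of -1.10 to 0.01 (adjusted p = 0.900). In stretched cells the differences were 0.00 ± 0.49, 0.19 ± 0.33, 0.38 ± 0.39 and 0.24 ± 0.27 in the same order.

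Whether stretch acted differently with the inhibitor was tested as the interaction, S_PI over NS_PI less S over NS. Of the 4 members 0 were called, as were 0% of all genes with edgeR (345 at an unadjusted p below 0.05, 0 by DESeq2). The Spry2 interaction was 0.93 ± 0.57 (SE; 95% interval -0.25 to 2.11; adjusted p = 0.984), so its larger rise with inhibitor was not shown to differ from that without it. Errfi1 had an interaction of 0.78 ± 0.38 (SE; adjusted p = 0.984), with a 95% interval that just reached 0, and it was positive in 5 of 5 animals, at 0.22 to 1.37. Those of Spry1 and Spry4 were 0.33 ± 0.58 and 0.80 ± 0.58. All 4 intervals held values above 1 on the log2 scale. Eif2ak3, whose protein the compound targets, averaged 123.5 CPM in NS and 158.4 CPM in S, and 121.1 and 227.2 CPM in the unstretched and stretched inhibitor groups, which does not test inhibition of the kinase. Its log2 change with stretch was 0.32 ± 0.22 without inhibitor (adjusted p = 0.295) and 0.85 ± 0.22 with it (adjusted p = 0.00563, or 0.0521 without the animal as a block). Without animal 1 the change without inhibitor was 0.58 and passed (adjusted p = 0.00779).

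Upstream of the brakes, several receptors and ligands rose with stretch. As background for the lists below, 1044 of all 8320 tested genes rose and 1030 fell in S vs NS. In S_PI vs NS_PI 1263 rose and 1275 fell. In either direction these were 24.9% and 30.5% of all tested genes, and the lists were not tested as sets. Of 14 listed receptor kinases 6 were tested, and 4 rose and 0 fell in S vs NS, while 3 rose and 1 fell in S_PI vs NS_PI (median log2 change 1.00 and 0.76). Met, the receptor of hepatocyte growth factor, rose by 1.37 ± 0.23 and 1.07 ± 0.24 (SE) in the respective comparisons. The ephrin receptor gene Epha2 rose by 1.24 ± 0.39 and 1.08 ± 0.39, and Igf1r, the receptor of insulin-like growth factor 1, rose by 1.04 ± 0.33 without inhibitor and had a log2 difference of 0.55 ± 0.34 with it (adjusted p = 0.230). Fgfr1, an FGF receptor, rose by 0.97 ± 0.25 in each comparison. Both Epha2 calls were lost without animal 2 or 3 (adjusted p up to 0.202), and the Igf1r call without animal 1, 2 or 3 (up to 0.140). Leaving out the animal block also ended both Epha2 calls (0.0709 and 0.0734) and the Igf1r call (0.274). With only the compared groups, Igf1r (0.0635) and Epha2 with inhibitor (0.0598) were not called. DESeq2 did not call Epha2 with inhibitor (0.0730). Without animal 2 or 3 the number of receptors that rose in S vs NS was 2. Egfr, the target of ERRFI1, averaged 4.44 CPM and was too low to test.

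Of 19 listed ligands 10 were tested, and 4 rose and 0 fell in S vs NS, while 6 rose and 1 fell in S_PI vs NS_PI (medians 0.44 and 0.66). The largest rises were those of 3 EGF receptor ligands. Hbegf went from a mean of 60.0 CPM in NS to 164.3 CPM in S, with log2 changes of 1.26 ± 0.28 without and 1.49 ± 0.29 with inhibitor. Ereg rose by 1.49 ± 0.48 and 2.10 ± 0.51, and Areg by 0.86 ± 0.26 and 1.37 ± 0.27. Without inhibitor, the calls of Ereg and Areg were lost when animal 2, 3 or 5 was left out (adjusted p up to 0.171 and 0.0796). Both were also lost without the animal as a block (0.0744 and 0.257), and that of Ereg with DESeq2 (0.0554). Leaving out animal 2, 3 or 5 left 2 ligands that rose in S vs NS, and 1 rose without the animal as a block.

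Genes that link receptors to ERK came next. Of 12 listed adaptors and exchange factors 8 were tested, and 4 rose and 0 fell in both comparisons (medians 0.51 and 0.58). Without animal 3, 4 or 5, 2 of them rose in S vs NS. The number was also 2 with upper-quartile scaling, library size alone, no filter, no animal block and only the compared groups. Sos1, which loads RAS, rose by 0.91 ± 0.16 and 1.02 ± 0.16, and the adaptor Nck1 by 0.65 ± 0.15 in each. Frs2, the docking protein of FGF receptors, rose by 0.42 ± 0.15 and 0.59 ± 0.16, and its call without inhibitor (adjusted p = 0.0484) was lost whichever animal was left out (0.0558 to 0.168). Leaving out the animal block ended both Frs2 calls (0.294 and 0.0972). In all, 10 of the 11 alternatives ended the Frs2 call without inhibitor. Of the 14 genes of the RAS, RAF, MEK and ERK cascade 12 were tested, of which 1 rose and 1 fell in S vs NS and 2 rose and 2 fell in S_PI vs NS_PI (medians -0.13 and -0.31). When scaled by library size alone, 0 rose and 3 fell in S vs NS, and 2 rose and 6 fell in S_PI vs NS_PI. Rps6ka3, a kinase downstream of ERK, rose by 0.55 ± 0.20 and 0.92 ± 0.20, and the first of these calls was lost without animal 1, 2, 4 or 5 (adjusted p up to 0.216). It was also lost with upper-quartile scaling (0.0718), library size alone (0.108), no filter (0.0523), no animal block (0.132) and only the compared groups (0.113). With inhibitor Rras, a RAS relative, fell by 0.64, and without it the log2 difference was -0.34 ± 0.14 (adjusted p = 0.0869), which passed with upper-quartile scaling (0.0492) and with library size alone (0.0247). Map2k1, which encodes MEK1, rose by 0.61 ± 0.18 with inhibitor, a call lost without animal 5 (adjusted p = 0.0764) or the animal block (0.0564). Without inhibitor Map2k1 had a difference of -0.08 ± 0.18 (adjusted p = 0.768).

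Other brakes on the same route moved in both directions. Of 19 listed genes 11 were tested, and 4 rose and 1 fell in S vs NS, while 6 rose and 1 fell in S_PI vs NS_PI (medians 0.44 and 0.62). Without animal 5, 2 of them rose in S vs NS. Cblb, a ubiquitin ligase that removes active receptors, rose by 0.94 ± 0.18 without and 0.62 ± 0.18 with inhibitor, where leaving out animal 3 (adjusted p = 0.0730), animal 5 (0.0554) or the animal block (0.0807) ended the latter call. Rasal2 and Rasa1 encode proteins that switch RAS off. Rasal2 rose by 0.80 ± 0.22 without inhibitor, a call lost without animal 4 (adjusted p = 0.0908) or 5 (0.0564), and by 1.23 ± 0.22 with it. The former call was also lost with only the compared groups (0.0560). Rasa1 rose by 0.68 ± 0.17 without and 0.78 ± 0.17 with inhibitor, and both calls were lost without the animal as a block (adjusted p = 0.253 and 0.193). The docking protein gene Dok1 fell by 1.14 in both comparisons, from 37.0 CPM in NS to 16.5 CPM in S and in 5 of 5 animals in each.

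The phosphatases that dephosphorylate MAP kinases form a further layer of feedback. Of 11 listed 8 were tested, and 3 rose and 1 fell in S vs NS, while 3 rose and 0 fell in S_PI vs NS_PI (medians 0.61 and 0.69). Dusp2 rose by 1.71 ± 0.21 and 1.97 ± 0.21, and Dusp5, a nuclear phosphatase of ERK, by 0.93 ± 0.26 and 1.65 ± 0.27. Dusp10 rose by 1.25 ± 0.33 with inhibitor and had a log2 difference of 0.67 ± 0.32 without it (adjusted p = 0.123, or 0.0401 without animal 1). Dusp7 fell by 1.02 without inhibitor and had a difference of -0.57 ± 0.31 with it (adjusted p = 0.167). Leaving out animal 2 or 3 ended the first Dusp5 call (adjusted p up to 0.107), animal 1 or 4 that of Dusp7 (up to 0.100), and animal 3 that of Dusp10 (0.0608). The first Dusp5 call (0.0843) and that of Dusp7 (0.0910) were also lost without the animal as a block. That of Dusp7 was lost with only the compared groups as well (0.0553). The number that rose in S vs NS was 1 without animal 2 or 3 and 5 without animal 1, and in S_PI vs NS_PI it was 6 without animal 1.

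Genes commonly read as output of ERK rose or stayed uncalled. Of 12 listed 11 were tested, and 6 rose and 0 fell in S vs NS, while 7 rose and 0 fell in S_PI vs NS_PI (medians 0.49 and 0.58). Fosl1, an AP-1 subunit, rose by 2.44 ± 0.30 and 3.77 ± 0.37, Myc by 1.27 ± 0.32 and 1.64 ± 0.33, and Ier3 by 1.22 ± 0.22 and 1.38 ± 0.22. Scaling by library size alone put the median over all genes at -0.12 in each stretch comparison. The medians of the 7 lists kept their sign under the 11 alternatives.

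**Figure D4:**
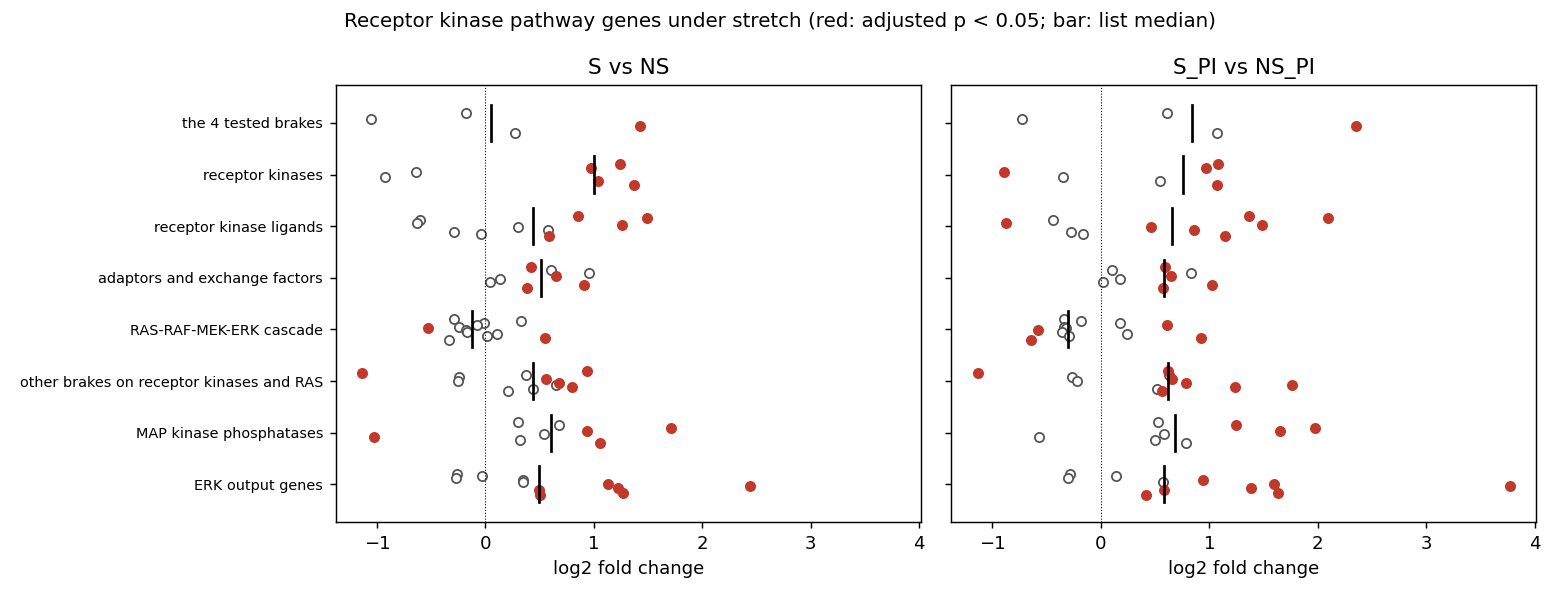
Log2 fold change (x axis) of each tested gene of the 4 brakes and of the 7 receptor kinase pathway lists in S vs NS (left) and S_PI vs NS_PI (right), with red filled points for adjusted p below 0.05 and a bar at each list's median. Most medians lie between 0.44 and 1.00 in S vs NS, that of the RAS, RAF, MEK and ERK cascade at -0.13, and that of the 4 brakes at 0.05.

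The genes whose pattern over the 20 libraries was nearest to that of Spry2 were Myc, Zbtb2 and Slc38a2. Nearness was the root mean square difference in log2 CPM after removing each gene's mean within each animal, and it was 0.39, 0.40 and 0.41, against a median of 1.01 over the 6968 genes that averaged 10 CPM or more. Zbtb2, which encodes a zinc finger protein, rose by 1.69 and 2.17 on the log2 scale without and with inhibitor, and Slc38a2, an amino acid transporter gene, by 1.67 and 1.90. The genes were chosen for their likeness to Spry2, so their changes are a description.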

How the data were processed

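Transcripts were measured by 3' end sequencing (QuantSeq, forward), which per the labels' protocols yields a single fragment per transcript, so CPM values were not divided by gene length. Per the submitters' processing notes, the authors aligned reads to rn6 with STAR and counted them with HTSeq; the sources used here give no version, annotation or strand setting. Raw counts per gene symbol were deposited for each library. A second deposited table holds DESeq2 output, per the file headers a signal (mean normalized count), log2 fold changes and errors, a test score and p-values, raw and adjusted. HTSeq summary rows were left out of library totals: 16.2 to 24.5% of alignment records lay outside genes and 35.5 to 57.7% aligned to several places.

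Genes were filtered with filterByExpr, scaled by TMM and tested with the quasi-likelihood F test of edgeR 4.0.16 (R 4.3.3) in a single fit of 4 groups with the animal as a block, which the authors' table is also named for (12 residual degrees of freedom). Benjamini-Hochberg adjusted p below 0.05 over 8320 genes was called. Standard errors are the log2 fold change divided by the square root of F. Libraries of the same number deviated together across genes (lowest r 0.32, median 0.48; median -0.17 between numbers), and 20 of 20 correlated best with their own number. Log2 differences within animals used log2 CPM with a prior count of 2. Alternatives were DESeq2 1.42.0, other scalings, no filter, no block, only the compared groups and leaving out each animal. Fits were tested on simulated data. Named pathway genes are up to 3 with the largest called change per list in each stretch comparison (mean of at least 10 CPM); 1 gene that this rule names is not reported here. The members and lists were chosen with earlier results of these data known. Protein sequences were not used here. Floors and intervals cover counting error only, as no molecular identifiers are named.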

Additional observations from a re-analysis of the deposited data

Results flagged for a closer look

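In groups of 5 libraries or 5 animals a single value was set apart where its gap to the next value exceeded 0.710 of the group's range. Of 45 groups of CPM values or within-animal log2 differences of members, 5 met this. Chance alone gives about 1 in 20 for independent groups. These groups share values and rest in part on low counts, so that rate is only a rough guide. In unstretched cells with inhibitor, animal 1 had the highest Spry1 level (33.4 CPM, against 10.5 to 11.6 CPM in the others) and the highest Spry2 level (6.02 CPM, against 1.48 to 2.10 CPM). In the same group animal 5 had the highest Spry4 level, 5.18 CPM from 7 counts. The log2 difference of Spry1 between S and NS was -2.83 in animal 1 and -0.77 to -0.28 in the others. The log2 difference of Spry4 between NS_PI and NS was 1.86 in animal 2, whose NS library had 0 counts of Spry4.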

How the results depend on the processing

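Low counts, at most 92 in a library for any Sprouty gene and 12 for Spred1, limit the precision: standard errors of the Sprouty log2 differences were 0.33 to 0.58, outside the average. Without the animal as a block 818 genes were called in S vs NS, 1228 in S_PI vs NS_PI and 2436 in the average stretch effect (2074, 2538 and 3815 with it), and Spry1 in the average was -0.91 and no longer called. The replicate block changed no other member's call. With only the compared groups 1048 genes were called in S vs NS and 27 in NS_PI vs NS, where DESeq2 called 4, the fit with no filter 4 and the fits without 1 animal 0 to 3, against 0. Spry1 in S vs NS passed with upper-quartile scaling (-1.12), library size only (-1.18) and no filter (-1.07), and Spry4 in S_PI vs NS_PI with DESeq2 (1.10). In S_PI vs S the sign of Spry1 (0.00) turned with DESeq2 (-0.079) and with no filter (-0.0072), and in NS_PI vs NS that of Eif2ak3 (-0.01) with upper-quartile scaling (0.011) and no filter (0.0022). Leaving out 1 animal gave log2 changes for Spry2 of 1.22 to 1.71 in S vs NS, and for Spry1 of -1.35 to -0.18 in S_PI vs NS_PI, -0.33 to 0.23 in S_PI vs S, -0.10 to 0.56 in the interaction and -1.30 to -0.33 in the average. Those of Spry4 in S_PI vs NS_PI were 0.89 to 1.26, and those of Errfi1 -0.47 to 0.10 in S vs NS and -0.047 to 0.46 in the average. Eif2ak3 in NS_PI vs NS ran from -0.12 to 0.075. Map2k1 in S vs NS ran from -0.21 to 0.064. The fit to only the compared groups cannot be made for the interaction or the average. The causes were not tested. All other member results kept their direction and their side of the threshold under the alternatives run.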

Other observations

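The authors' deposited table does not state its groups or direction. Its log2 fold changes had the opposite sign to S vs NS for 937 of 937 genes that it calls at an adjusted p below 0.05 and that were tested here, and its sign is reversed below. In the authors' deposited table, Spry2 had a log2 fold change of 1.08 (adjusted p = 0.0191) and Spry1 of -0.77 (adjusted p = 0.102). Spred1 had 0.74 (adjusted p = 0.208), Spry4 0.23 (0.768) and Errfi1 -0.16 (0.777) in the authors' deposited table, and Spred2 had a mean of 0. Since the direction was read from these counts, the signs are no independent check.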
